A study of Saccharomyces cerevisiae with 4 samples.

Results

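The proteasome subunit genes of *Saccharomyces cerevisiae* are the 33 genes that encode the core particle and the regulatory particle of the proteasome. They were chosen by name, as the 7 genes of the α ring, the 7 genes of the β ring, the 6 ATPase genes of the base, the 4 other genes of the base and the 9 genes of the lid. All 33 are among the 5783 nuclear genes with a coding sequence, 250 bp or longer, whose capped RNA 5′ ends were counted. *SEM1*, at 270.0 bp, is the shortest of the 33.

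The proteasome degrades proteins that carry chains of ubiquitin. Its core particle is a barrel of stacked rings, in which the β subunits cut proteins inside the chamber and the α subunits gate the entrance. The regulatory particle binds this barrel. Its base holds a ring of Rpt ATPases that unfold substrates, and its lid removes ubiquitin before the substrate enters. In yeast, the genes of both particles share a promoter element called PACE (proteasome-associated control element). It is bound by the activator Rpn4, itself a short-lived substrate of the proteasome, so that proteasome genes are induced together when degradation falls behind.

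Capped 5′ ends were sequenced in 2 libraries of *set2*Δ and 2 libraries of BY4741, to find starts of transcription that depend on Set2, the histone H3 lysine 36 methyltransferase. The *set2*Δ strain carries *set2*::kanMX4 in the BY4741 background, and BY4741 is a MATa haploid laboratory strain that lacks functional *HIS3*, *LEU2*, *URA3* and *MET15*, as the mutant does. Both strains were grown in YPD with 1% glucose at 30 °C to an optical density of about 1, and 10 µg of total RNA entered each library. The libraries of a strain are described as biological duplicates, with no batch or culture named, and the *set2*Δ mutant is not said to be more than 1 clone. The *set2*Δ libraries held 1267578 and 1099482 counts and the BY4741 libraries 452888 and 375442, a ratio of 2.86 between the means. *SET2* had 0 and 1 counts inside the gene in the *set2*Δ libraries, against 9 and 2 in the BY4741 libraries, and 13 and 12 counts from 250 bp upstream to the gene end in *set2*Δ, against 31 and 13 in BY4741. In that longer window *LEU2* and *MET15* were without a count and *URA3* had at most 1. *HIS3* had 265 and 248 counts there in *set2*Δ, against 179 and 139 in BY4741, of which 15 and 12 in *set2*Δ, against 4 and 3 in BY4741, lay inside the gene. The MATa genes *MFA1*, *MFA2*, *STE2*, *BAR1* and *STE6* were present in every library. The α-specific *MF(ALPHA)2* had 34 and 31 counts in the *set2*Δ libraries, against 2 and 2 in the BY4741 libraries, with 32 and 29 of the *set2*Δ counts inside the gene, while *MF(ALPHA)1* had at most 12 and *STE3* at most 5 counts.

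The PACE motif was looked for first, because promoters of proteasome genes are known to share it. Its frequency among the 33 is therefore not an independent finding about them. The letters GGTGGCAAA were searched on both strands from 250 bases before to 50 bases after the start of each gene. An exact match was found in 27 of the 33 genes (81.8%), and in 72 of all 6001 promoters searched (1.20%). The 33 genes thus held 37.5% of all promoters with the motif. A site between a member and a divergent neighbour, as between *RPT6* and *ALG13*, was counted for both genes where it lay in both windows. The shorter core GGTGGCA, which is contained in the motif, was found in the same number of members, 27, and in 2.88% of all promoters. In 19 members the motif pointed in the direction of the gene and in 8 against it, and no member had more than 1 match. Shown are the sites of *PRE8*, *PRE10*, *PRE3* and *RPT6*, whose 5′ ends were lower in *set2*Δ in every alternative tried, and those of *SCL1* and *RPT4* as examples of the opposite direction. Capitals mark the motif, letters run 5′ to 3′ on the strand of the gene, and sequences and coordinates are those of the RefSeq assembly R64.
PRE8 (chrXIII:86841-86869, minus strand): agcttattaaGGTGGCAAAattgtccccg
PRE10 (chrXV:1018856-1018884, minus strand): cctctaaatcGGTGGCAAAaataagaaag
PRE3 (chrX:435035-435063, plus strand): aacggaatccGGTGGCAAAaaagggaaaa
RPT6 (chrVII:411352-411380, minus strand): atgcgagcgaGGTGGCAAAagttgtaata
SCL1 (chrVII:475337-475365, minus strand): cacacaccaaTTTGCCACCgtaaggatag
RPT4 (chrXV:813802-813830, minus strand): aatagtggaaTTTGCCACCgaagggaaag

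The other 6 members, *PRE5*, *PUP1*, *RPN8*, *RPN10*, *RPN13* and *SEM1*, held 1 site each with a single mismatch. *PRE5*, *PUP1* and *RPN8* shared AGTGGCAAA, which was found in 0.717% of all promoters. *RPN10*, *RPN13* and *SEM1* shared GGTGGCGAA, in *RPN10* on the other strand, which was found in 0.45% of all promoters. Sites with up to 1 mismatch were present in 7.57% of all promoters. The search with a mismatch was added after the exact matches were known. These sites are shown with the mismatched motif in capitals.
RPN10 (chrVIII:498968-498996, plus strand): caggcgggttTTCGCCACCggaatttaca
PRE5 (chrXIII:901552-901580, plus strand): cctattatagAGTGGCAAAattaaaaatt
PUP1 (chrXV:631891-631919, minus strand): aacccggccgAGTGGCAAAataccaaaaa
RPN8 (chrXV:817085-817113, minus strand): gggatacctcAGTGGCAAAtcgttactca
RPN13 (chrXII:965656-965684, minus strand): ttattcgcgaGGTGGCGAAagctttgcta
SEM1 (chrIV:1202007-1202035, plus strand): tagtgctatgGGTGGCGAAcgtggtgggc

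The main 5′ ends of proteasome mRNAs lay downstream of the motif in all 27 members with an exact match. The first base of the motif was 84 to 183 bp upstream of the gene (median 120.0), and the main start, the position with the highest summed depth-scaled count, followed it by 36 to 132 bp (median 77). The strains hardly differed in this distance, which had a median over counts of 82 and 81 bp in the *set2*Δ libraries, against 81 and 81 bp in the BY4741 libraries. The share of 5′ window counts between 60 and 89 bp after the motif was 42.3% and 43.2% in the *set2*Δ libraries, against 46.8% and 46.7% in the BY4741 libraries. Upstream of the motif lay 0.888% and 0.906% of the counts in the *set2*Δ libraries, against 0.337% and 0.361% in the BY4741 libraries. These were 79 and 75 counts in *set2*Δ, against 14 and 13 counts in BY4741. Across the 27 genes, those with a motif farther upstream had longer leaders (Pearson's r = 0.70, Spearman's rho = 0.62). Both distances are measured from the same gene start, and genes are not independent replicates.

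**Figure D1:**
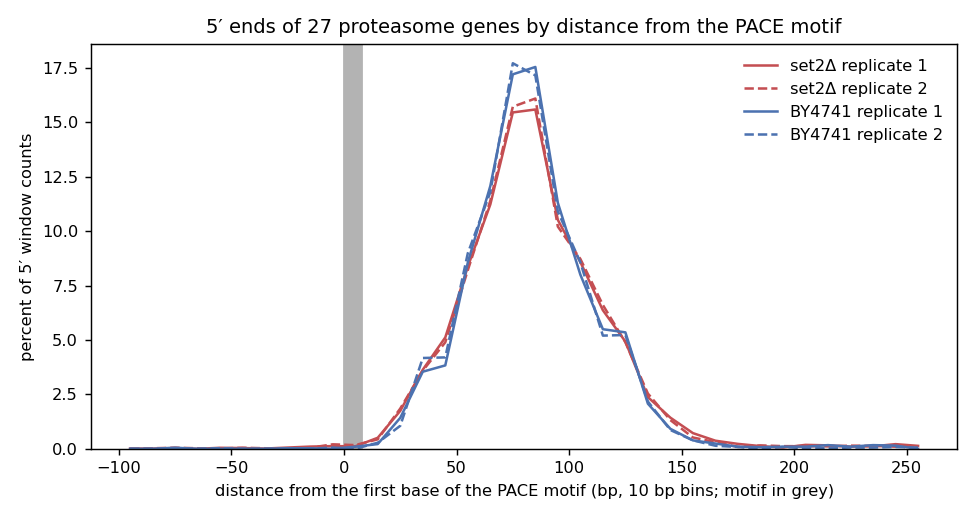
Share of 5′ window counts (percent, vertical axis) by distance from the first base of the PACE motif (bp, horizontal axis, bins of 10 bp) in the 27 members with an exact match, 1 line per library with *set2*Δ in red and BY4741 in blue. The 4 lines lie close together with a single peak, and 42.3% to 46.8% of the counts fell between 60 and 89 bp.

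Leaders were short in most members. The main start lay 4 to 117 bases before the gene start, with a median of 43 bases, and 18 of the 33 leaders were shorter than 50 bases. *RPN13*, which encodes a ubiquitin receptor, had the shortest leader (4 bases) and *RPN8*, a lid subunit, the longest (117 bases). A pyrimidine preceded a purine at all 33 main starts, and 23 of them began with A. Over the genome, this pattern was found at 80.8% to 85.0% of plus-strand positions with 5 or more counts. On the minus strand it was found at 77.0% to 78.8% of them. Minus-strand positions had been moved by 42 bp, and the pattern also served to check that move, so it is not independent there. The main starts of the 5 members that were lower in every alternative are shown as examples, with the base before the start and the start itself in capitals.
PRE8 (chrXIII:86746-86775, minus strand): caaccataagacacCAatcaacacagttct
PRE10 (chrXV:1018785-1018814, minus strand): agttgtaaagctttCAaacacattcgagcg
PRE3 (chrX:435111-435140, plus strand): gtgtacaattacgaTAagaattgctacttc
RPT6 (chrVII:411300-411329, minus strand): ttatgtaaacggaaCAacagtatagtggga
RPN10 (chrVIII:499037-499066, plus strand): aagaagggaaaagtCAataaataactcagc

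In the counts, 5′ ends were spread over many bases. The main start held a median of 6.07% to 12.6% of the counts of its 5′ window, depending on the library, and the same position was the highest in all 4 libraries in 10 of 33 members. The median count at the main start was 20 in each *set2*Δ library and 17 in each BY4741 library, at unequal depth. Where heights are limited in this way, the share falls with depth and the highest position is less certain. The part of this limit in the spread was not tested. The mean start of a gene differed between the strains, *set2*Δ minus BY4741, by -10.99 (upstream) to 8.06 bp (downstream), with a median of 0.07 bp, and by 5 bp or less in 24 members. In 13 members the mean start of either *set2*Δ library was farther downstream than that of either BY4741 library, and in 5 it was farther upstream. Among the 3010 genes with at least 20 counts in every library, the same arrangements were found in 30.8% and 24.7%.

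Counts at the main starts were nearly the same in both strains, although the *set2*Δ libraries were 2.86 times as deep. The median count at the main start of the 33 members was 20 in each *set2*Δ library, against 17 in each BY4741 library. *PRE1*, which encodes the β4 subunit, had 17 and 17 counts in the *set2*Δ libraries, against 17 and 17 in the BY4741 libraries. *PRE3*, which encodes the β1 subunit with caspase-like activity, had 16 and 16 counts in the *set2*Δ libraries, against 17 and 17 in the BY4741 libraries. *RPT6*, an ATPase of the base, had 23 and 17 counts in the *set2*Δ libraries, against 18 and 17 in the BY4741 libraries. No member reached the ratio of the depths at its main start, where the ratio of *set2*Δ over BY4741 counts was 0.941 to 1.68. The main start was picked from these same counts after scaling to depth, so that a BY4741 count weighed more than a *set2*Δ count. This choice favours positions high in BY4741 and can lower their ratio, and its part was not tested. In 12 of the 33 members the main start was the highest position in both *set2*Δ libraries. Away from the main starts, the summed counts of the same 5′ windows had a ratio of 2.33. Within the 5′ windows of the members, positions with a single count in BY4741 replicate 1 had 1140 counts in *set2*Δ replicate 1, against 236 in BY4741 replicate 2, a ratio of 4.83. Positions with 16 to 30 counts in BY4741 replicate 1 had 1447 counts in *set2*Δ replicate 1, against 1184 in BY4741 replicate 2, a ratio of 1.22. The depths of the libraries compared here were 1267578 counts in *set2*Δ replicate 1 and 375442 in BY4741 replicate 2, farther apart than the means. Counts of 16 were the most frequent from 8 upwards in both *set2*Δ libraries and in BY4741 replicate 1, and no position of a member held more than 39. Whether reads sharing a molecular barcode were collapsed is not given in the sources used here, and the part of this limit in the changes below was not tested.

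**Figure D2:**
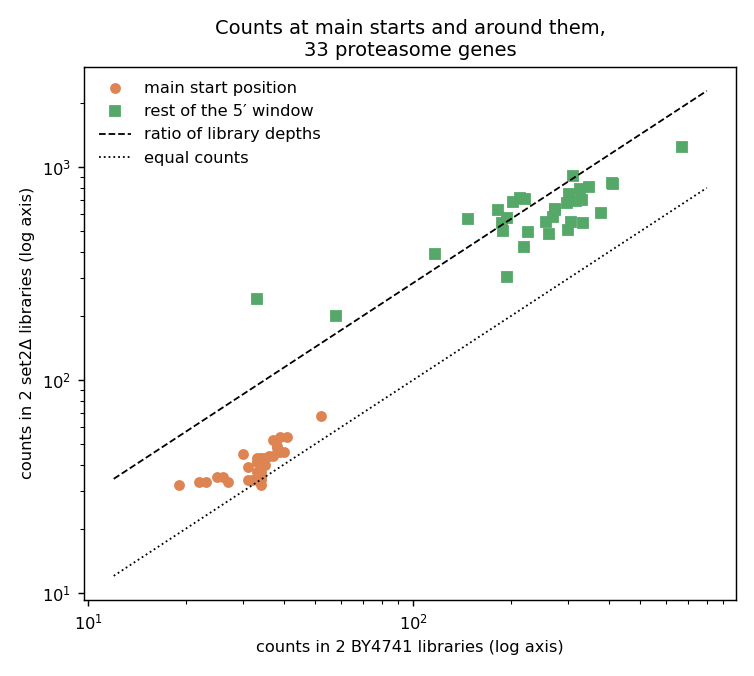
Summed counts of the 2 *set2*Δ libraries (vertical, log axis) against those of the 2 BY4741 libraries (horizontal, log axis) for each of the 33 members, at the main start (circles) and in the rest of the 5′ window (squares). The dashed line is the ratio of the depths, 2.86, and the dotted line equal counts: all 33 main starts lie below the dashed line, between ratios of 0.941 and 1.68. The main starts were picked from the depth-scaled counts of the same libraries, which favours positions high in BY4741.

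With that limit, the level of 5′ ends was compared in the window from 250 bp upstream of each gene up to base 200 of the gene. Values are CPM, counts scaled to the library's total in this window type and adjusted by TMM. Each transcript gives 1 capped end, so that these levels need no correction for gene length, and a lower share of a library, a rise of other genes and less RNA per cell cannot be told apart. The summed level of the 33 genes was 11294 and 11909 CPM in the *set2*Δ libraries, against 16370 and 17609 CPM in the BY4741 libraries. In *set2*Δ, 23 of the 33 genes were lower and 1 was higher, where 30.3% and 32.7% of all 5121 tested genes were lower and higher, 63% in all (Benjamini-Hochberg adjusted p under 0.1 in the quasi-likelihood F-test of edgeR). The median log2 fold change was -0.56 for the members and 0.11 for all tested genes. In 25 members both *set2*Δ libraries lay below both BY4741 libraries, an arrangement seen in 35.9% of all tested genes.

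The members were then set beside other genes of like level. Among all tested genes with a mean of 400 to under 800 CPM over the 4 libraries, 80.6% of 506 genes were lower, with a median log2 fold change of -0.66. Of the 19 members in that class, 16 were lower (84.2%), with a median of -0.64. Among genes of 200 to under 400 CPM, 54.6% of all 1071 genes and 6 of 11 members (54.5%) were lower, with medians of -0.33 and -0.28. The share of members called was thus near that of other genes of their level. With cyclic loess offsets, which remove a drift of the ratio with the level, 7 members were lower, 6 were higher and the median was 0.02, and with positions of 8 or more counts left out, 13 were lower, 5 were higher and the median was -0.26. Of all tested genes, 23.5% were lower and 22.9% higher with loess offsets, and 22.9% and 18.1% without those positions.

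**Figure D3:**
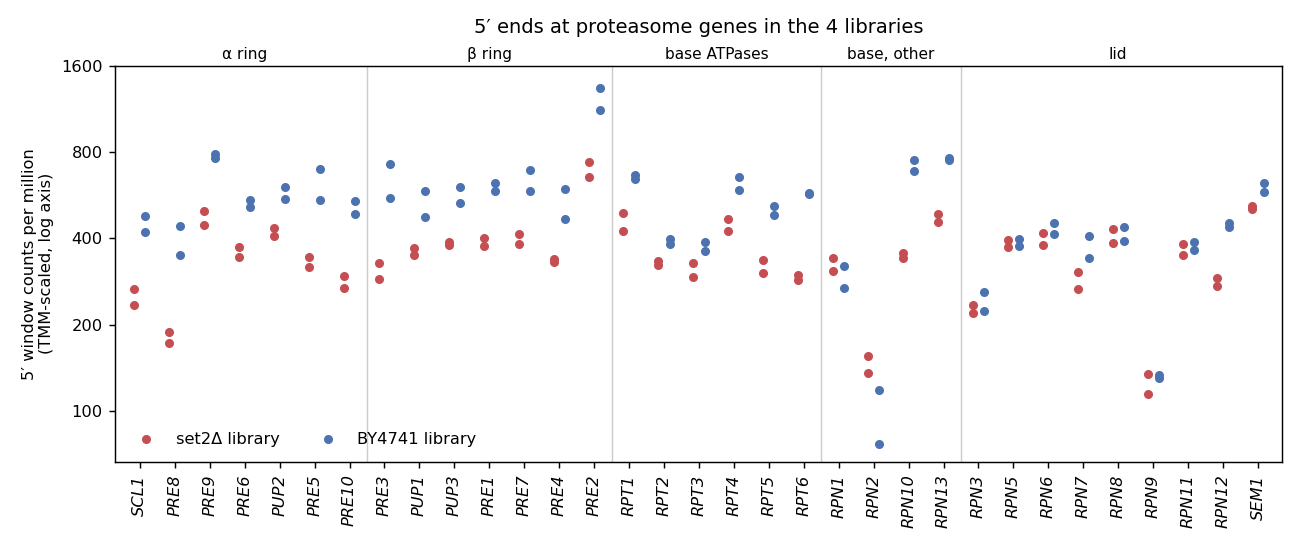
Level of 5′ ends (CPM in the 5′ window, log axis) of the 33 members by subunit group, with the 2 *set2*Δ libraries in red on the left and the 2 BY4741 libraries in blue on the right of each gene. All 14 genes of the α and β rings have both red points below both blue points, while the points of most lid genes overlap. The arrangement of the ring genes was seen in 35.9% of all tested genes of any level.

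The α ring genes, whose products form the outer gate of the barrel, were lower in *set2*Δ in 7 of 7 cases, with a median log2 fold change of -0.84. Of all tested genes 30.3% were lower, and the share rose with the level. It was 54.6% at 200 to under 400 CPM and 80.6% at 400 to under 800 CPM, where the ring had a median of 445 CPM. With loess offsets 4 of the 7 were lower (median -0.32), with distinct positions in place of counts 3 (-0.46), and without positions of 8 or more counts 5 (-0.71). *PRE8* (α2) had 188 and 172 CPM in *set2*Δ, against 351 and 441 CPM in BY4741, a log2 fold change of -1.12 ± 0.14 (SE; adjusted p = 2.59e-14, edgeR). In counts, these were 188 and 151 counts in *set2*Δ, against 113 and 115 in BY4741, at 2.86 times the depth. *PRE10* (α7) had 296 and 269 CPM in *set2*Δ, against 488 and 541 CPM in BY4741 (-0.86 ± 0.13, adjusted p = 4e-10, edgeR). *PRE8* and *PRE10* kept the call in all 21 alternatives, and the libraries of the strains did not overlap in either gene. *PRE5* (α6) had 319 and 344 CPM in *set2*Δ, against 544 and 698 CPM in BY4741, a log2 fold change of -0.89. *SCL1* (α1) had 234 and 267 CPM in *set2*Δ, against 419 and 479 CPM in BY4741, a log2 fold change of -0.84. Both lost the call in 1 of 21 alternatives, in which distinct positions replaced counts. *PRE9* (α3), the only core particle gene that yeast can lose and live, had 446 and 499 CPM in *set2*Δ, against 789 and 759 CPM in BY4741, a log2 fold change of -0.72. *PRE6* (α4) had 346 and 374 CPM in *set2*Δ, against 516 and 545 CPM in BY4741, a log2 fold change of -0.56. With loess offsets, *PRE9* and *PRE6* were at -0.00194 and -0.0012 and were not called. *PUP2* (α5) had the smallest change of the ring, with 409 and 433 CPM in *set2*Δ, against 547 and 602 CPM in BY4741 and a log2 fold change of -0.45, which turned to 0.11 without positions of 8 or more counts and to 0.17 with loess offsets.

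The β ring genes, which include those of the proteolytic sites, were also lower in 7 of 7 cases, with a median log2 fold change of -0.65. Their median level was 475 CPM, and of all tested genes of 400 to under 800 CPM 80.6% were lower, against 30.3% of all tested genes. With loess offsets only *PRE3* was lower, and the median was -0.03. Without positions of 8 or more counts 5 of the 7 were lower, with a median of -0.54. *PRE3* (β1) had 289.5 and 329 CPM in *set2*Δ, against 553 and 725 CPM in BY4741, a log2 fold change of -1.04 ± 0.13 (SE; adjusted p = 3.67e-15, edgeR), and was lower in all 21 alternatives. *PRE2*, which encodes the β5 subunit with chymotrypsin-like activity, had the highest 5′ level of all members, 656 and 740.4 CPM in *set2*Δ, against 1124 and 1342 CPM in BY4741, and a log2 fold change of -0.82 ± 0.12. With loess offsets that change was 0.11, and in the other 20 alternatives *PRE2* remained lower. *PUP1*, which encodes the β2 subunit with trypsin-like activity, had 349.6 and 369 CPM in *set2*Δ, against 475 and 583 CPM in BY4741, a log2 fold change of -0.55. Among the 3 genes of the active sites, *PRE3* and *PUP1* had the largest and the smallest change of the ring, a difference that was not tested. The inactive subunits lay within that range. *PUP3* (β3) had 379.7 and 388 CPM in *set2*Δ, against 603 and 529 CPM in BY4741, a log2 fold change of -0.57. *PRE1* (β4) had 376 and 399.8 CPM in *set2*Δ, against 587 and 621 CPM in BY4741, a log2 fold change of -0.64. *PRE7* (β6) had 416 and 383 CPM in *set2*Δ, against 584 and 690.4 CPM in BY4741, a log2 fold change of -0.66. These are structural subunits without an active site. *PRE4* (β7) had 339 and 331 CPM in *set2*Δ, against 466 and 595 CPM in BY4741, a log2 fold change of -0.65. In all 7 genes both *set2*Δ libraries lay below both BY4741 libraries, an arrangement seen in 35.9% of all tested genes of any level. With loess offsets *PUP1* and *PUP3* were at 0.00924 and 0.0214, *PRE1* and *PRE7* at -0.03 each and *PRE4* at -0.11, none of them called.

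Of the 6 ATPase genes of the base, 5 were lower, with a median log2 fold change of -0.50 over the 6. Of all tested genes 30.3% were lower, with 54.6% at 200 to under 400 CPM and 80.6% at 400 to under 800 CPM. With loess offsets only *RPT6* was lower and the median was 0.15, and without positions of 8 or more counts 1 was lower, 1 higher and the median was 0.30. *RPT6* had 298 and 287 CPM in *set2*Δ, against 572 and 575 CPM in BY4741, a log2 fold change of -0.97 ± 0.13 (SE; adjusted p = 3.99e-13, edgeR), and kept the call in all 21 alternatives. *RPT2*, *RPT3* and *RPT5* encode the subunits whose tails dock into the α ring and open its gate. *RPT5* had 303 and 336 CPM in *set2*Δ, against 481 and 518 CPM in BY4741, a log2 fold change of -0.64. *RPT1* had 424 and 489 CPM in *set2*Δ, against 646 and 664 CPM in BY4741, a log2 fold change of -0.52. *RPT4* had 426 and 467 CPM in *set2*Δ, against 590.2 and 652 CPM in BY4741, a log2 fold change of -0.47. In all 6 ATPase genes both *set2*Δ libraries lay below both BY4741 libraries, an arrangement seen in 35.9% of all tested genes. *RPT3* had 294 and 327 CPM in *set2*Δ, against 388 and 361 CPM in BY4741, a log2 fold change of -0.28, and lost the call in 9 of 21 alternatives and its direction in 2. *RPT1*, *RPT3* and *RPT4* had values above 0 without positions of 8 or more counts, at 0.58, 0.44 and 0.16, the first of them past the threshold (adjusted p = 0.0735). *RPT2*, which was not called, had 335 and 322 CPM in *set2*Δ, against 382 and 399 CPM in BY4741 (-0.25 ± 0.13, adjusted p = 0.107, edgeR).

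The 4 other genes of the base differed among themselves. *RPN10*, a ubiquitin receptor at the junction of base and lid, had 357 and 342 CPM in *set2*Δ, against 686 and 752 CPM in BY4741, a log2 fold change of -1.04 ± 0.12 (SE; adjusted p = 1.06e-15, edgeR), and was lower in all 21 alternatives. *RPN13*, another ubiquitin receptor, had 455 and 486 CPM in *set2*Δ, against 752 and 763 CPM in BY4741, a log2 fold change of -0.69. *RPN2*, a scaffold subunit, was the only member called higher, with 155 and 136 CPM in *set2*Δ, against 118 and 76.7 CPM in BY4741 and a log2 fold change of 0.55 ± 0.21 (SE; adjusted p = 0.0158, edgeR). Of all 1182 tested genes of 100 to under 200 CPM 35.4% were higher, and *RPN2*, at 121 CPM, had the lowest mean level of the 33. It had the fewest BY4741 counts of the 33 (155 and 119 counts in *set2*Δ, against 38 and 20 in BY4741), and its call was lost in 5 of 21 alternatives, with the direction kept. *RPN1*, the other scaffold and a docking site for ubiquitin receptors, was not called in the main test (308 and 343 CPM in *set2*Δ, against 319.9 and 268 CPM in BY4741; 0.13 ± 0.14, adjusted p = 0.44), and was higher with loess offsets (0.51, adjusted p = 0.00275, edgeR).

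Among the 9 lid genes 2 were lower, where 30.3% of all tested genes were, and the median log2 fold change was -0.10. *RPN12* had 292 and 273 CPM in *set2*Δ, against 454 and 437 CPM in BY4741, a log2 fold change of -0.66 ± 0.13, and *RPN7* had 266 and 305 CPM in *set2*Δ, against 342 and 407 CPM in BY4741, a log2 fold change of -0.38 ± 0.14. Both calls were lost with loess offsets and without positions of 8 or more counts, where the values were 0.48 for *RPN12* and 0.29 for *RPN7*. *RPN11*, the deubiquitinase of the lid, had 349.6 and 382 CPM in *set2*Δ, against 388 and 364 CPM in BY4741, a log2 fold change of -0.05 ± 0.13. *RPN8*, its inactive partner, had 387 and 432 CPM in *set2*Δ, against 438 and 391 CPM in BY4741, a log2 fold change of -0.03 ± 0.13. *SEM1*, a small protein that holds lid subunits together, had 519 and 505 CPM in *set2*Δ, against 581 and 625 CPM in BY4741, a log2 fold change of -0.23 ± 0.13 (adjusted p = 0.102, edgeR), and was the only uncalled lid gene whose libraries did not overlap between the strains. The values of *RPN3*, *RPN5*, *RPN6* and *RPN9*, scaffold subunits of the lid, were -0.09, -0.01, -0.13 and -0.10 on the log2 scale. With loess offsets, 5 lid genes were higher, *RPN5* (0.49), *RPN6* (0.40), *RPN8* (0.50), *RPN11* (0.43) and *SEM1* (0.44), where 22.9% of all tested genes were higher.

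The core particle stood below the lid in every alternative. The median of the 14 core particle genes was below that of the 9 lid genes by 0.60 in the 5′ window, and the difference between the medians, core minus lid, ran from -0.90 to -0.41 over the 21 alternatives, below 0 in all of them. In the internal window it was -1.25, and ran from -1.42 to -1.004 over 22 alternatives. The mean level over the 4 libraries had a median of 445 CPM in the α ring, 475 CPM in the β ring and 371 CPM in the lid. The difference was described after the results were seen and carries no test.

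**Figure D4:**
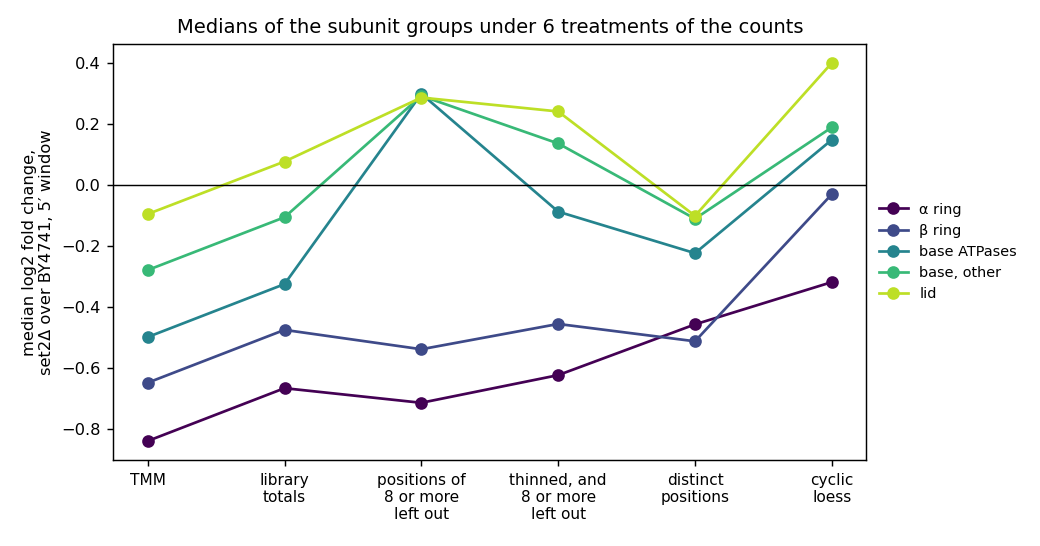
Median log2 fold change of the 5′ window, *set2*Δ over BY4741 (vertical axis), of the 5 subunit groups under 6 treatments of the counts (horizontal axis), 1 line per group. The α and β rings lie below the lid under each treatment, while the medians of the ATPases, the other base genes and the lid lie on either side of 0 depending on the treatment. The medians of the α ring and the lid are -0.84 and -0.10 with TMM and -0.32 and 0.40 with cyclic loess offsets.

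Inside the genes, from 200 bp after the gene start to the gene end, 5′ ends were less frequent in *set2*Δ for 11 of the 33 members and more frequent for 0, where 18.1% and 24.5% of all 4734 tested genes were lower and higher (adjusted p under 0.1, edgeR). The median log2 fold change was -0.68 for the members and 0.13 for all tested genes. At an unadjusted p under 0.05, 12 members were lower and 0 higher, and DESeq2 called 2 members lower and 0 higher. DESeq2 called 9.72% of all tested genes lower and 13.1% higher. Among all 468 genes with a mean 5′ level of 400 to under 800 CPM, 49.1% were lower inside the gene and 3.85% higher, with a median of -0.91, against 8 of 19 members lower (42.1%), none higher and a median of -0.74. In 18 members both *set2*Δ libraries lay below both BY4741 libraries and in 4 above, arrangements seen in 29.6% and 38.6% of all tested genes. With scaling to library totals, 7 members were higher and 2 lower, with a median of 0.01, while the median of all tested genes was 0.83 and 41.0% of them were higher and 7.25% lower. A change of scaling moves all genes by nearly the same amount, so the direction of the members' internal change rests on the scaling. With loess offsets 16 members were lower and 0 higher, and with filterByExpr 14 of the 25 members left.

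By group, the median internal log2 fold change was -1.13 in the α ring (3 of 7 lower), -1.08 in the β ring (3 of 7 lower), -0.77 in the ATPases (4 of 6 lower), 0.06 in the other base genes (0 of 4) and 0.15 in the lid (1 of 9 lower). Of all tested genes 18.1% were lower. The 7 members that were higher with library totals were *PUP2* (1.30), *RPN1* (1.08), *RPN11* (1.05), *RPN13* (1.00), *RPN5* (0.91), *RPN8* (0.84) and *RPN2* (0.51), and those lower were *RPT6* (-1.82) and *PUP1* (-1.09). In the main test the 22 members without a call lay between -1.13 (*SCL1*) and 0.63 (*RPN9*). *RPT6* had the largest internal decrease of the members. Its internal window held 27 and 19 counts in *set2*Δ, against 24 and 33 in BY4741, or 121 and 110.4 CPM in *set2*Δ, against 494 and 907 CPM in BY4741, where CPM is now relative to internal counts. The log2 fold change was -2.52 ± 0.32 (SE; adjusted p = 9.27e-14, edgeR), the BY4741 libraries lay far above the *set2*Δ libraries, and the call was kept in all 22 alternatives, with log2 fold changes from -2.93 to -1.82. The highest internal position of the gene, base 917, had 5 and 2 counts in *set2*Δ, against 1 and 5 in BY4741, and is shown with the start and the base before it in capitals.
RPT6 (chrVII:410356-410385, minus strand): atccagcacttttgAGacccggtagaatag

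The other internal decreases were smaller. *PUP1* had 15 and 13 counts in *set2*Δ, against 10 and 11 in BY4741, a log2 fold change of -1.79 ± 0.48, and was called in 20 of 22 alternatives. *PRE3* had 14 and 9 counts in *set2*Δ, against 12 and 3 in BY4741, a log2 fold change of -1.58, and was at -0.47 and not called without BY4741 replicate 1, which held 12 of its 15 BY4741 counts. *PRE10* had 17 and 11 counts in *set2*Δ, against 9 and 6 in BY4741, a log2 fold change of -1.30. *PRE5* had 18 and 7 counts in *set2*Δ, against 7 and 6 in BY4741, a log2 fold change of -1.26, and was at -1.88 without *set2*Δ replicate 1. In these genes of the rings, the raw counts of the *set2*Δ libraries exceeded those of BY4741 by less than the depth. *PRE9* had 33 and 20 counts in *set2*Δ, against 18 and 9 in BY4741, a log2 fold change of -1.24. *PRE2* had 17 and 26 counts in *set2*Δ, against 18 and 4 in BY4741, a log2 fold change of -1.23, and reached 0.01 without BY4741 replicate 1, which held 18 of its 22 BY4741 counts. The ATPase genes had more internal counts. *RPT5* had 44 and 28 counts in *set2*Δ, against 15 and 17 in BY4741, a log2 fold change of -1.05. *RPT2* had 57 and 49 counts in *set2*Δ, against 28 and 12 in BY4741, a log2 fold change of -0.80, and was at -0.27 and not called without BY4741 replicate 1. *RPT4* had 57 and 46 counts in *set2*Δ, against 18 and 19 in BY4741, a log2 fold change of -0.74. *RPN6*, the lid gene of this group, had 22 and 14 counts in *set2*Δ, against 8 and 8 in BY4741, a log2 fold change of -1.04. Without 1 library at a time, 1 (without either *set2*Δ library), 4 (without BY4741 replicate 1) or 10 (without BY4741 replicate 2) members were called lower.

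**Figure D5:**
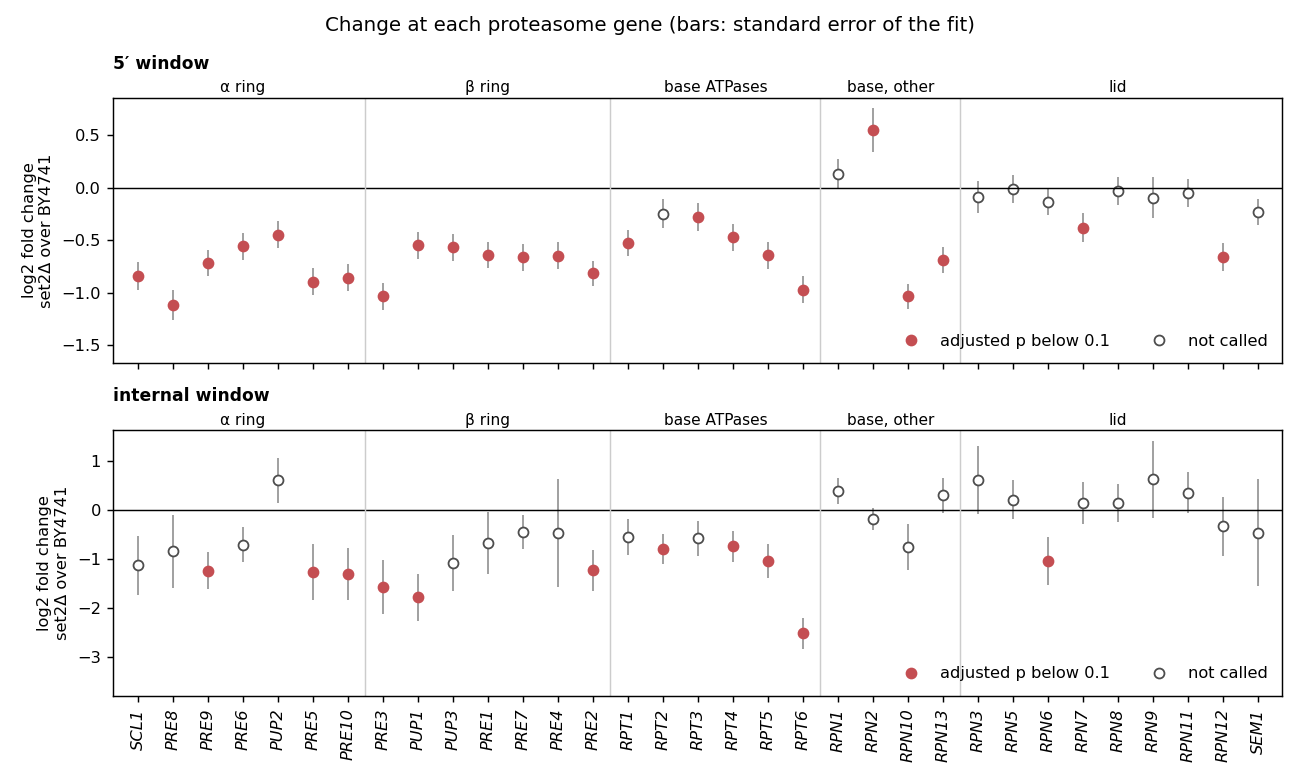
Log2 fold change of *set2*Δ over BY4741 (points, vertical axes) with the standard error of the fit (bars) for each of the 33 members by subunit group, in the 5′ window (upper panel) and the internal window (lower panel), with filled points for an adjusted p below 0.1. The α and β rings and the ATPases lie below 0 in the upper panel, and in the lower panel *RPT6* lies lowest at -2.52.

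The largest internal counts belonged to the scaffold genes of the base. *RPN2* had 236 and 174 counts in *set2*Δ, against 53 and 47 in BY4741 (-0.19 ± 0.22, adjusted p = 0.557, edgeR), and *RPN1* had 128 and 126 counts in *set2*Δ, against 22 and 20 in BY4741 (0.39 ± 0.27, adjusted p = 0.28, edgeR). Most internal positions of the members had few counts. The highest was base 1726 of *RPN1*, with 11 and 14 counts in *set2*Δ, against 6 and 4 in BY4741. Base 1258 of the same gene had 6 and 6 counts in *set2*Δ, against 0 and 0 in BY4741. Positions of this kind were picked after their values were seen and carry no test. With base 917 of *RPT6*, base 220 of *RPN13* (5 and 5 counts in *set2*Δ, against 1 and 0 in BY4741) and base 1266 of *RPT4* (5 and 3 in *set2*Δ, against 1 and 1 in BY4741), these were the internal positions of members with 10 or more counts in all. Their surroundings are shown with the start and the base before it in capitals. In *RPN13* and *RPT4* a pyrimidine preceded a purine, while in both positions of *RPN1* and in *RPT6* it did not.
RPN1 (chrVIII:162972-163001, minus strand): ggtattctatacatGGgccaaggtgaacag
RPN1 (chrVIII:163440-163469, minus strand): atgacttccgcggtAGctagtattggatct
RPN13 (chrXII:965327-965356, minus strand): attcctggagagacCAtgtgggttccaata
RPT4 (chrXV:812429-812458, minus strand): agccgtaagaaaagTAgctgaagttaagaa

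Of the internal counts of all members, 47.0% and 50.5% lay in the 3′-most of 3 equal parts of the window in the *set2*Δ libraries, against 45.0% and 45.8% in the BY4741 libraries. Internal 5′ ends were a small part of the members' output. The internal window held 10.4% and 9.09% of the sense counts of the members in the *set2*Δ libraries (95% Wilson intervals 9.87% to 10.9% and 8.58% to 9.63%), against 7.20% and 6.29% in the BY4741 libraries (6.56% to 7.90% and 5.64% to 7.0%). The difference of 3.0 percentage points between the means (9.74% ± 0.925 in *set2*Δ and 6.74% ± 0.647 in BY4741, SD, n = 2 each) had an exact two-sided permutation p = 0.333, the smallest that 2 against 2 libraries allow. Over all genes the share was 20.6% and 18.9% in *set2*Δ, against 11.7% and 10.5% in BY4741. Without positions of 8 or more counts, the order of the members was the opposite, with 26.7% and 25.4% in *set2*Δ, against 30.3% and 29.4% in BY4741, while over all genes the means were 37.3% in *set2*Δ and 32.7% in BY4741. Intervals cover counting error only.

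The internal change was compared with the 5′ change of the same gene in 1 model. It was below the 5′ change for 3 members and above it for 1, where 7.45% and 7.54% of 4510 genes were called. *RPT6* fell further inside the gene than at its 5′ end, with a difference of -1.56 ± 0.33 on the log2 scale (adjusted p = 0.000204, edgeR), called in all 10 alternatives. *PUP1* (-1.25 ± 0.47, adjusted p = 0.0653) and *RPN2* (-0.74 ± 0.29, adjusted p = 0.087) also lay below, and *RPN13* lay above (1.00 ± 0.37, adjusted p = 0.0598), with calls kept in 1, 4 and 6 of 10 alternatives. *RPN13* had 72 and 49 counts in *set2*Δ, against 12 and 9 in BY4741 in the internal window. In the first 200 coding bases, which were examined after the other windows, 28 members could be tested. *SEM1* was higher with 128 and 99 counts in *set2*Δ, against 17 and 14 in BY4741 (0.83 ± 0.27, adjusted p = 0.0222, edgeR), where 10.4% of tested genes were higher. It was 1 of 8 members in which both *set2*Δ libraries lay above both BY4741 libraries, an arrangement seen in 36.6% of tested genes. *PRE8* (23 and 10 counts in *set2*Δ, against 9 and 13 in BY4741), *RPT6* (16 and 6 counts in *set2*Δ, against 13 and 3 in BY4741) and *RPN13* (110 and 99 counts in *set2*Δ, against 40 and 35 in BY4741) were lower, with log2 fold changes of -1.45, -1.57 and -0.56, where 9.57% of tested genes were lower. None of these calls was kept in all 9 alternatives, with 7 for *PRE8*, 6 for *RPT6*, 2 for *RPN13* and 6 for *SEM1*. The log2 fold changes ran from -2.00 to -0.92 in *PRE8* and from -2.26 to -0.34 in *RPT6*. They ran from -0.64 to 0.04 in *RPN13* and from 0.78 to 1.35 in *SEM1*.

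Antisense 5′ ends were few in the members, as in most genes. The median antisense count per library was 0 in either strain for the members, against 1 in *set2*Δ and 0 in BY4741 for all 5783 genes. The 33 genes together had 27 and 8 antisense counts in the *set2*Δ libraries, against 4 and 2 in the BY4741 libraries, 15 genes had none, and no gene had more than 4 over the 4 libraries. No member therefore reached the minimum of 10 counts, which 1481 of the 5783 genes did. Of these 1481 genes, 18.2% were higher and 4.52% lower in *set2*Δ.

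*RPN4*, the activator that binds PACE, was higher at its 5′ end. It had 119 and 83 counts in *set2*Δ, against 21 and 16 in BY4741, or 119 and 94.5 CPM in *set2*Δ, against 65.2 and 61.4 CPM in BY4741, a log2 fold change of 0.76 ± 0.25 (SE; adjusted p = 0.00584, edgeR). Of the 8 genes that regulate the proteasome genes or Rpn4, 6 were higher and 0 lower at the 5′ end, also at an unadjusted p under 0.05, with a median of 1.19, where 32.7% of all tested genes were higher and 30.3% lower. Inside the gene 5 were higher and 0 lower, where 24.5% and 18.1% of all tested genes were. Their median count per library was 65.5 in *set2*Δ and 7.5 in BY4741, against 331 and 150 for the members. Among all tested genes of under 25 CPM 35.6% were higher, of 25 to under 50 CPM 56.7% and of 50 to under 100 CPM 51.5%, with medians of 0.96, 0.85 and 0.52, and each of these classes held 2 of the 8 genes, of which 1, 2 and 2 were higher. *UBR2* and *MUB1*, which encode the ubiquitin ligase and its partner that mark Rpn4 for degradation, were the largest of them, with 28 and 10 counts in *set2*Δ, against 1 and 1 in BY4741 for *UBR2* (2.49 ± 0.86) and 44 and 47 counts in *set2*Δ, against 4 and 1 in BY4741 for *MUB1* (2.47 ± 0.53). The depth-scaled ratio of *UBR2* was 5.90, with an exact 95% interval of 1.52 to 50.5 that covers counting error only. Inside the gene, *PDR3* (50 and 32 counts in *set2*Δ, against 3 and 2 in BY4741, a log2 fold change of 1.8) and *UBR2* (59 and 44 counts in *set2*Δ, against 5 and 3 in BY4741, 1.46) changed most among the genes called. *PDR3* encodes an activator of drug resistance genes. In the first 200 coding bases *YAP1*, an activator of oxidative stress genes, was called higher, with 17 and 8 counts in *set2*Δ, against 0 and 0 in BY4741. On the antisense strand *PDR3* was higher (88 and 86 counts in *set2*Δ, against 3 and 2 in BY4741) and *HSF1*, the heat shock factor gene, was lower (177 and 154 counts in *set2*Δ, against 160 and 133 in BY4741), with log2 fold changes of 2.69 and -2.23.

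Genes for assembly and activation of the proteasome were lower or not called at the 5′ end. Of these 15 genes, 7 were lower and 0 higher at the 5′ end, also at an unadjusted p under 0.05, with a median of -0.32, where 30.3% and 32.7% of all tested genes were lower and higher. By level, 1 of 4 was lower at 50 to under 100 CPM, 1 of 5 at 100 to under 200 CPM and 4 of 4 at 200 to under 400 CPM. Of all tested genes in these classes, 10.8%, 23.4% and 54.6% were lower. *UMP1*, the maturation factor of the core particle, had 288 and 249 counts in *set2*Δ, against 191 and 164 in BY4741, a log2 fold change of -1.09 ± 0.13 (adjusted p = 1.55e-16, edgeR), and *TMA17*, a chaperone of the base, had 52 and 42 counts in *set2*Δ, against 20 and 30 in BY4741, a log2 fold change of -0.77 ± 0.27. Inside the gene 9 could be tested, and *RPN14* (34 and 26 counts in *set2*Δ, against 3 and 1 in BY4741, 1.67) and *UBP6* (93 and 68 counts in *set2*Δ, against 7 and 4 in BY4741, 1.65) were higher, while *FUB1* (17 and 15 counts in *set2*Δ, against 15 and 3 in BY4741, -1.37) was lower, where 24.5% and 18.1% of all tested genes were higher and lower. Of 15 tested genes that attach ubiquitin or deliver its conjugates, 8 were lower and 2 higher at the 5′ end, against the same 30.3% and 32.7% of all tested genes. By level, 1 of 4 was lower at 100 to under 200 CPM, 3 of 5 at 200 to under 400 CPM and 3 of 3 at 400 to under 800 CPM. Of all tested genes in these classes, 23.4%, 54.6% and 80.6% were lower. *UBI4*, the polyubiquitin gene, had 178 and 150 counts in *set2*Δ, against 126 and 140 in BY4741 (-1.39 ± 0.14), and *DSK2*, a shuttle receptor, had 289 and 284 counts in *set2*Δ, against 191 and 204 in BY4741 (-1.15 ± 0.12), while the ligase genes *UFD4* (137 and 135 counts in *set2*Δ, against 27 and 17 in BY4741; 0.94) and *HUL5* (64 and 53 counts in *set2*Δ, against 12 and 8 in BY4741; 0.86) were higher. Inside the gene 3 were higher and 5 lower, where 24.5% and 18.1% of all tested genes were. The largest increases were those of *HUL5* with 168 and 137 counts in *set2*Δ, against 7 and 5 in BY4741 (2.45 ± 0.37) and *UFD2* with 220 and 194 counts in *set2*Δ, against 22 and 16 in BY4741 (1.24 ± 0.27). The largest decreases were those of *UBI4* with 19 and 12 counts in *set2*Δ, against 10 and 19 in BY4741 (-2.11) and *DSK2* with 35 and 20 counts in *set2*Δ, against 25 and 23 in BY4741 (-2.02). Reads with several alignments were left out upstream, so values inside the repeats of *UBI4* are uncertain. Of the 39 genes of these 3 lists, 5 had the PACE motif, *ECM29*, *YAP1*, *UBI4*, *UBA1* and *CDC48*. Of the 39 tested genes outside the members with the motif, 16 were lower and 9 higher at the 5′ end, with a median of -0.10, at a median level of 165 CPM. Of the 27 members with the motif, 19 were lower and 1 higher, with a median of -0.56 at 409 CPM. Of the 6 members without an exact match, 4 were lower and 0 higher, with a median of -0.62 at 505 CPM. Genes that share a site with a divergent member were not left out of these 39.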

How the data were processed

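Capped 5′ ends were measured in 2 *set2*Δ and 2 BY4741 libraries, with molecular barcodes of 8 random bases and reads of 50 bases. The deposited files give whole-number counts of 5′ ends per base and strand, made by the authors without normalization. CASAVA 1.8.2 and Novoalign, named in the submitters' processing notes, were run on assembly R64, and reads with several alignments or clipped 5′ ends were dropped, per the paper's methods. Whether barcodes were collapsed is not given in the sources used here.

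On the minus strand, 42 bp were added to each listed position, which puts it at the 5′ end of the read. Windows ran from 250 bp upstream to base 200, and from there to the gene end, in genes of 250 bp or more. Genes with 10 counts over the libraries were tested with edgeR 4.0.16 (TMM, quasi-likelihood, adjusted p under 0.1) in R 4.3.3, limma 3.58.1 gave loess offsets, and DESeq2 1.42.0 was an alternative. Python 3.11.15, numpy 2.4.6, pandas 2.3.3, scipy 1.17.1 and matplotlib 3.10.9 did the rest. The fits were tested on simulated data. Shares have 95% Wilson intervals. Depth was 1099482 to 1267578 counts in *set2*Δ, against 375442 to 452888 in BY4741.

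Members and related lists were chosen with earlier results of these data known. All members are named. Library values are given for members past the threshold in a window, and for the 2 related genes per list and direction with the largest changes. The first 200 coding bases, the search with a mismatch, thinning combined with the removal of high positions, and the removal of neighbouring 5′ windows were added after the data were seen. Alternatives changed the test, the normalization, the filter, the windows, the gene length, the minus-strand shift, the treatment of high or shared positions, the depth, the replicates, the choice of the main start and the motif.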

Additional observations from a re-analysis of the deposited data

How the results depend on the processing

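Of the 504 values that the 24 members called in the 5′ window had over 21 alternatives, 438 kept direction and call, 48 lost the call and 18 changed direction. *PRE8*, *PRE10*, *PRE3*, *RPN10* and *RPT6* stayed lower in all 21. The causes of the differences were not tested. In the 5′ window, library totals gave 21 members lower, 2 higher and a median of -0.39, DESeq2 21 lower and 0 higher, and distinct positions in place of counts 11 lower, 0 higher and a median of -0.33. In these settings, in that order, 23.8%, 23.7% and 13.7% of all tested genes were lower and 41.7%, 13.9% and 7.68% higher. Cyclic loess offsets gave 7 lower, 6 higher and a median of 0.0214, with *PUP2* at 0.17, *PUP1* at 0.00924, *PUP3* at 0.0214, *PRE2* at 0.11, *RPT1* at 0.14, *RPT3* at 0.15, *RPT4* at 0.18, *RPN13* at 0.0230 and *RPN7* at 0.0310. Without positions of 8 or more counts, 13 were lower, 5 higher and the median was -0.26, with *PUP2* at 0.11, *RPT1* at 0.58, *RPT3* at 0.44, *RPT4* at 0.16, *RPN7* at 0.29 and *RPN12* at 0.48. When the *set2*Δ libraries were also thinned to the depth of BY4741, 12 were lower, 3 higher and the median was -0.0800, with *PUP2* at 0.15, *RPT1* at 0.47 and *RPN12* at 0.36. Of all tested genes, 21.7% were lower and 16.9% higher in that setting. Leaving out 1 library at a time gave 21 to 23 lower, 0 to 1 higher and medians from -0.63 to -0.51, and the call of *RPN2* was lost without *set2*Δ replicate 1 or BY4741 replicate 2.

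In the internal window, 186 of 241 values of the 11 called members kept direction and call, 54 lost the call and 1 changed direction, *PRE2*, which ran from -1.78 without BY4741 replicate 2 to 0.0124 without BY4741 replicate 1. DESeq2 called 2 members lower. Library totals gave 2 lower, 7 higher and a median of 0.0116, loess offsets 16 lower, 0 higher and a median of -1.03, and filterByExpr, which left 25 members, 14 lower, 0 higher and a median of -0.87. Without positions of 8 or more counts, and with distinct positions, 1 member was higher. Leaving out 1 library at a time gave 1 to 10 lower, 0 higher and medians from -0.71 to -0.37. The difference of *set2*Δ minus BY4741 in the share of counts in the internal window of members was -3.83 percentage points when positions of 8 or more counts were removed, and 2.34 to 3.65 points without 1 library at a time.

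In the first 200 coding bases, library totals gave 4 members higher and 1 lower, *RPN13* was at 0.0388 without positions of 8 or more counts, and leaving out 1 library at a time gave 0 to 1 higher and 0 to 2 lower, with *SEM1* called only when *set2*Δ replicate 2 was left out. For the internal change against the 5′ change, library totals gave 2 above and 1 below, no filter 1 below, removal of positions of 8 or more counts 0 above, removal of the highest position 2 above, and leaving out 1 library at a time 0 to 1 above and 1 to 2 below. The median leader was 50.0 bases from *set2*Δ replicate 2, 51 from BY4741 replicate 1 and 31 with minus-strand positions as listed. The share of members with the core GGTGGCA was the same 27 of 33. No member reached the minimum of antisense counts.

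Replicate numbers did not pair the libraries, with correlations of deviations from the strain means of -0.04 in the internal and -0.05 in the 5′ window. With the replicate block, 22 members were lower and 1 higher in the 5′ window, 10 lower and 0 higher in the internal window, and 1 lay below in the comparison of internal and 5′ change.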

Other observations

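The neighbourhood of the members' promoters was looked at as a description. The nearest gene upstream ran in the opposite direction in 21 of the 33 members and in the same direction in 12, and in none of the 12 did it end within 250 bp of the member. None of the 33 upstream neighbours was itself a proteasome subunit gene.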
